A study of Homo sapiens with 6 samples.

Results

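The heat shock protein and chaperonin genes are the cell's main protein-folding helpers, and 85 of the 22152 genes in the deposited table belong to them by name. The members carry HSPA, HSPB, HSPD, HSPE, HSPH, HSP90, DNAJA, DNAJB, DNAJC or CCT symbols, together with TCP1 and the heat shock factors HSF1 and HSF2. Of the 85, 68 are genes and 17 are pseudogenes, which are described apart because short reads can be shared with a parent gene. TCP1, HSPBP1 and HSPBAP1 end in P1 but are protein-coding and were counted among the 68, while 6 pseudogenes ending in P without a digit were placed with the other pseudogenes.

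The study asked what the miRNA strand miR-21-3p changes in keratinocytes. HaCaT cells, a human keratinocyte line that became immortal spontaneously, received 1 nM of a synthetic miR-21-3p mimic in 3 libraries or 1 nM of a negative control (NC) mimic in 3 libraries. RNA was taken 48 h after transfection, and per the labels polyA RNA was sequenced from stranded mRNA libraries, whereas the study's methods speak of small RNA libraries. The labels call the 3 libraries of each group biological replicates, all of 1 cell line, and name neither a culture date nor a sequencing batch. The values are read counts divided by a library size factor, kept to 3 significant digits, so reads could be recovered as whole numbers for low values only. In each library 100% of the values above 0 and up to 100 fell within 0.1 of a whole number of reads, against 49.0% to 51.0% when larger values, rounded more coarsely, were included. For most members the recovered reads used with edgeR are therefore rounded estimates. Recovered depth was 24404900, 24529500 and 26172500 reads in NC mimic replicates 1, 2 and 3, and 24808300, 24978400 and 27988000 reads in miR-21-3p mimic replicates 1, 2 and 3. Values by library are given below in that order.

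Chaperones bind proteins that are unfolded, newly made or damaged and keep them from aggregating. HSP70 proteins work in cycles of ATP use that J-domain (DNAJ) proteins start, HSP90 finishes the folding of kinases and steroid receptors, and the ring-shaped chaperonins (TRiC in the cytosol, HSP60 with HSP10 in mitochondria) enclose a client while it folds. The transcription factor HSF1 switches on the heat-inducible members by binding repeats of nGAAn units, and a separate program serves the endoplasmic reticulum (ER). In epidermis the small heat shock protein HSPB1 is known as an abundant protein of differentiating keratinocytes.

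The keratinocyte identity of the cells was checked with 9 markers, all of which were present, with KRT5 the most abundant at a mean of 131833. The 9 summed to 337390, 322280 and 337080 in the NC libraries and to 334260, 347120 and 321160 in the miR-21-3p libraries. Within the list, the integrin gene ITGB4 fell, from 21400, 17700 and 19900 to 15900, 17900 and 15400 (log2 -0.26, adjusted p = 0.0381 in the limma fit described with the results), with overlap. Its call was kept without NC replicate 2 or miR-21-3p replicate 2 and lost without each of the other libraries, at adjusted p up to 0.145. The transcription factor gene TP63 was lower in each miR-21-3p library than in each NC library (-0.13, adjusted p = 0.102), and SFN (0.15, adjusted p = 0.0545), DSP (0.07, adjusted p = 0.37) and JUP (0.11, adjusted p = 0.128) were higher in each, none of these 4 passing the test. Without NC replicate 2, TP63 (adjusted p = 0.0468) and SFN (adjusted p = 0.0239) passed. These 5 markers are named with their values known. Of 6 fibroblast markers 1 was in the table, COL1A1, at 560, 390 and 478 against 372, 378 and 364. Of 5 melanocyte markers 2 were listed, with sums of 631, 630 and 640 against 586, 616 and 585 and MITF the higher. The other listed melanocyte marker, PMEL, had overlapping values of 155, 120 and 128 against 145, 152 and 126. CD14 was the only listed gene of 5 immune cell markers, at 89.6, 58.7 and 79.1 against 91.8, 92.2 and 69.1, and VWF the only one of 4 endothelial markers, at 720, 801 and 726 against 712, 747 and 761. The other markers of these lists were not analysed here. COL1A1 and MITF were also lower in each miR-21-3p library than in any NC library, without passing the test (adjusted p = 0.0635 and 0.218), and the part of these marker differences in the chaperone results was not tested.

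NC mimic replicate 2 lay nearer the miR-21-3p libraries than the other NC libraries did. Its squared difference from NC mimic replicate 1, scaled to counting error, averaged 3.33 per gene, more than its 2.41 from miR-21-3p replicate 1 and 2.44 from miR-21-3p replicate 2, while it was 2.11 from NC replicate 3. Among the members it was the highest of the 3 NC libraries for 42 of the 68 member genes (61.8%), against 36.9% of all tested genes. NC replicate 1 was set off in the other direction, as the lowest NC library for 41 of the 68 (60.3%), against 38.1% of all tested genes. The summed value of the 68 was 180454, 207200 and 190228 in the NC libraries and 224954, 211758 and 236407 in the miR-21-3p libraries. As a share of each library's total this was 0.710%, 0.820% and 0.744% against 0.889%, 0.828% and 0.941%. Each miR-21-3p library lay above each NC library, with NC replicate 2 and miR-21-3p replicate 2 close together. Transcripts of the mitochondrial genome moved the other way, at 9.01%, 8.91% and 9.42% against 8.40%, 8.61% and 8.33% of the total, and their part in the chaperone values was not tested. In a whole culture, a change in the mix of cells and a change in RNA per cell cannot be told apart.

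**Figure D1:**
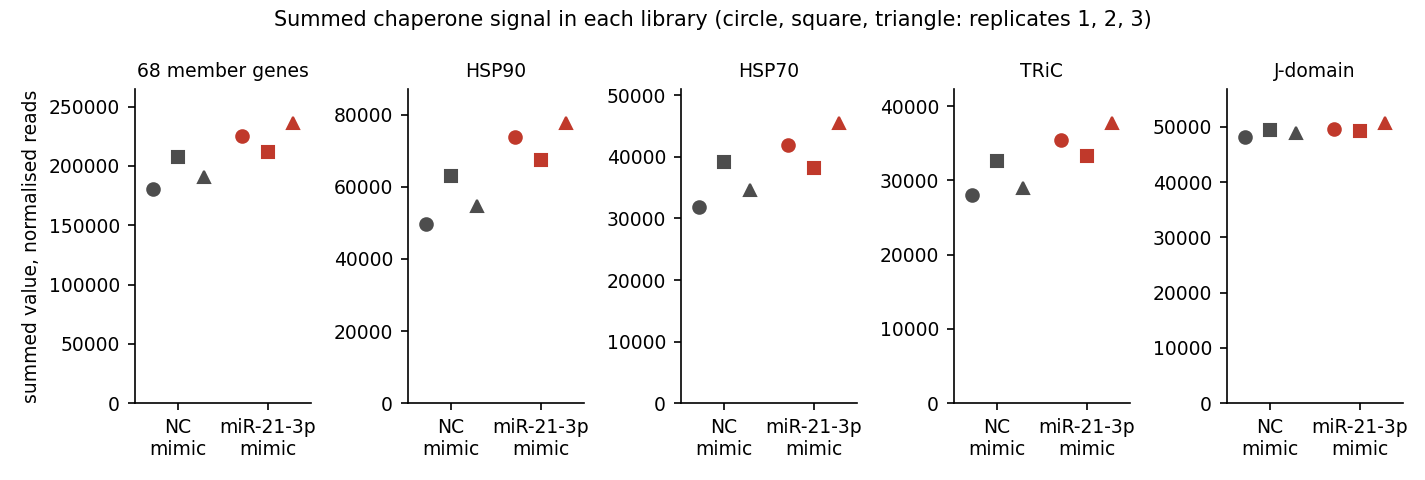
Summed values (normalised reads, vertical axes from 0) of the 68 member genes and of 4 families in each of the 6 libraries, with NC mimic in grey and miR-21-3p mimic in red. The HSP90 sum was 49800 to 62900 in the NC libraries and 67400 to 77800 in the miR-21-3p libraries, while the HSP70 and J-domain sums of the groups overlapped.

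With the miR-21-3p mimic, 15 of the 68 member genes rose and 2 fell, at an adjusted p under 0.05 in a limma fit over 14782 genes. Over all tested genes 6.15% rose and 4.67% fell. The 15 were HSP90AA1, HSP90AB1 and HSP90B1, the genes with HSPA symbols HSPA1A, HSPA4, HSPA5 and HSPA9, the HSP110 gene HSPH1, the mitochondrial chaperonin HSPD1, the TRiC subunits TCP1, CCT3, CCT5, CCT6A and CCT7, and 1 J-domain gene, DNAJC8. The genes that fell were DNAJB2 and HSPA12A, and the other 51 did not pass the test. By a fit of recovered reads with edgeR, 14 rose and 3 fell, where the background was 5.94% higher and 5.16% lower: HSPA5 was lost and DNAJC15 joined the genes that fell. The log2 fold changes of the 15 ran from 0.17 to 0.60, the median of the 68 was 0.07, and that of all tested genes was 0.00. At an unadjusted p under 0.05, 26 members were higher and 5 lower, beside 15.3% and 13.2% of all tested genes. In 20 of the 68 each miR-21-3p library exceeded each NC library and in 5 each was lower, beside 16.5% and 14.8% of all tested genes. Among the 15, NC replicate 2 was the highest NC library in 15 and NC replicate 1 the lowest in 15, against 36.9% and 38.1% of all tested genes. The highest miR-21-3p library was replicate 3 in 14, against 36.8% of all tested genes. The 15 were picked by a test on these same values.

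**Figure D2:**
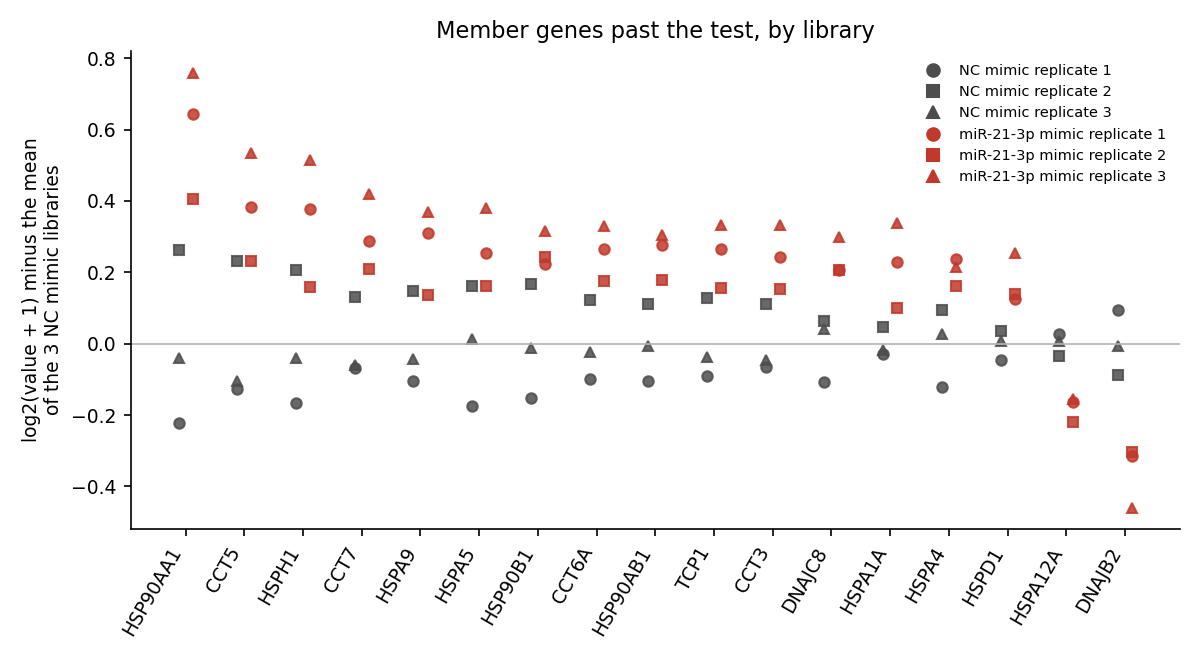
The 17 member genes past the test, with log2(value + 1) in each library minus the mean of the 3 NC mimic libraries (vertical axis, log2 units), NC mimic in grey and miR-21-3p mimic in red, with the marker shape giving the replicate. HSP90AA1 lies farthest above 0 and DNAJB2 farthest below, and the grey squares of NC replicate 2 lie nearest the red points for the genes that rose.

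These calls depended on single libraries. With NC mimic replicate 2 left out, 24 members rose and 3 fell, all 15 among the 24, while over all genes the shares became 11% and 9.03%. The 9 added genes were CCT2, CCT4, CCT8, DNAJA1, DNAJA3, DNAJB11, DNAJC10, HSPA4L and HSPA8, and DNAJC15 joined the genes that fell. Leaving out miR-21-3p replicate 2 gave 18 higher, the 15 with CCT2, HSPA2 and HSPA8, and 1 lower, beside 6.08% and 4.34% of all genes. Leaving out NC replicate 1, miR-21-3p replicate 1 or miR-21-3p replicate 3 left 1 gene higher each time, HSP90AA1, where 2.14%, 0.995% and 1.37% of all genes were higher. When NC replicate 3 was left out, limma called 0 members higher, and edgeR also called 0, while limma called 0.663% of all genes higher. At an unadjusted p under 0.05 that fit had 22 members higher and 3 lower, beside 11.1% and 9.89% of all genes. DNAJB2 was lower in each of these 6 fits, and HSPA12A was lost in all but the fit without NC replicate 2. Calls over all genes dropped as well, from 909 higher with 6 libraries to 98 without NC replicate 3. All 15 genes kept a positive log2 fold change in every fit.

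**Figure D3:**
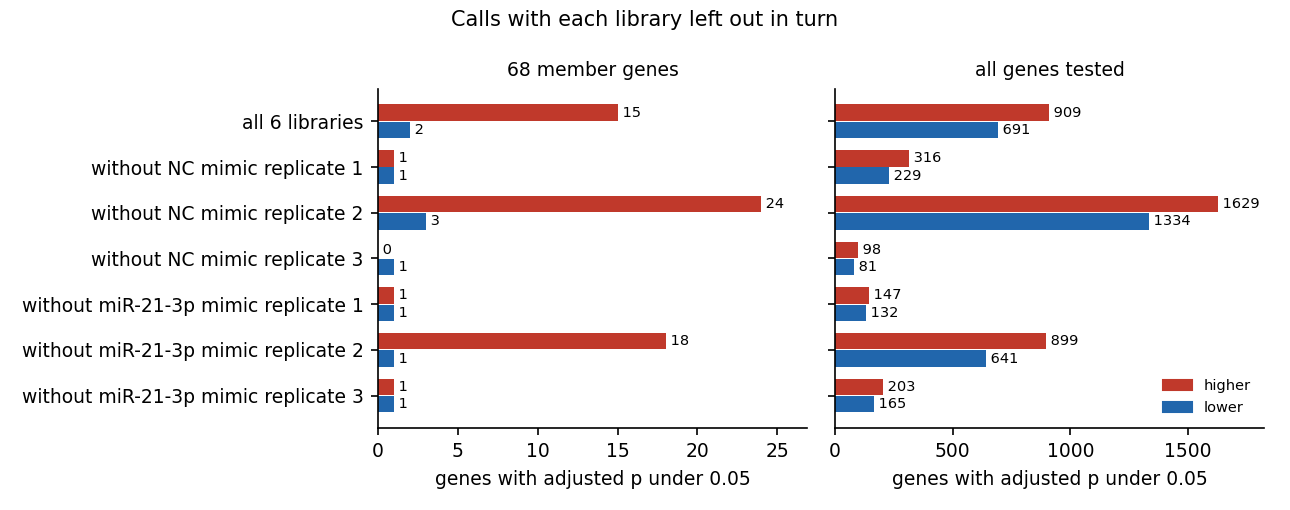
Number of genes higher (red) and lower (blue) at an adjusted p under 0.05 in limma (horizontal axes), with all 6 libraries and with each library left out, for the 68 member genes and for all genes tested. Members called higher ranged from 0 without NC mimic replicate 3 to 24 without NC mimic replicate 2, and the counts over all genes changed in the same fits.

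Members that passed are counted by family here, and differences between families were not tested. Over all tested genes 6.15% rose and 4.67% fell. All 3 HSP90 genes rose (median log2 fold change 0.26), as did 5 of 9 TRiC subunits (0.24), 4 of 12 HSP70 genes (0.21), the gene named HSPH1 for HSP110, and 1 of the 2 genes for HSP60 and HSP10. Of the 34 J-domain genes 1 rose and 1 fell, counts near the share over all tested genes, with a median of -0.01. The sign of that small median turned without NC replicate 3, where it was 0.02. Among the 34 members without a J-domain, 14 rose and 1 fell, with a median of 0.20. Without NC replicate 2, DNAJA1, DNAJA3, DNAJB11 and DNAJC10 joined the J-domain genes that rose, and DNAJC15 joined those that fell. CCT2, CCT4, CCT8, HSPA4L and HSPA8 joined the other members that rose. In that fit 11% of all genes were higher and 9.03% lower. For all tested genes, the middle 90% of log2 fold changes lay between -0.35 and 0.31.

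**Figure D4:**
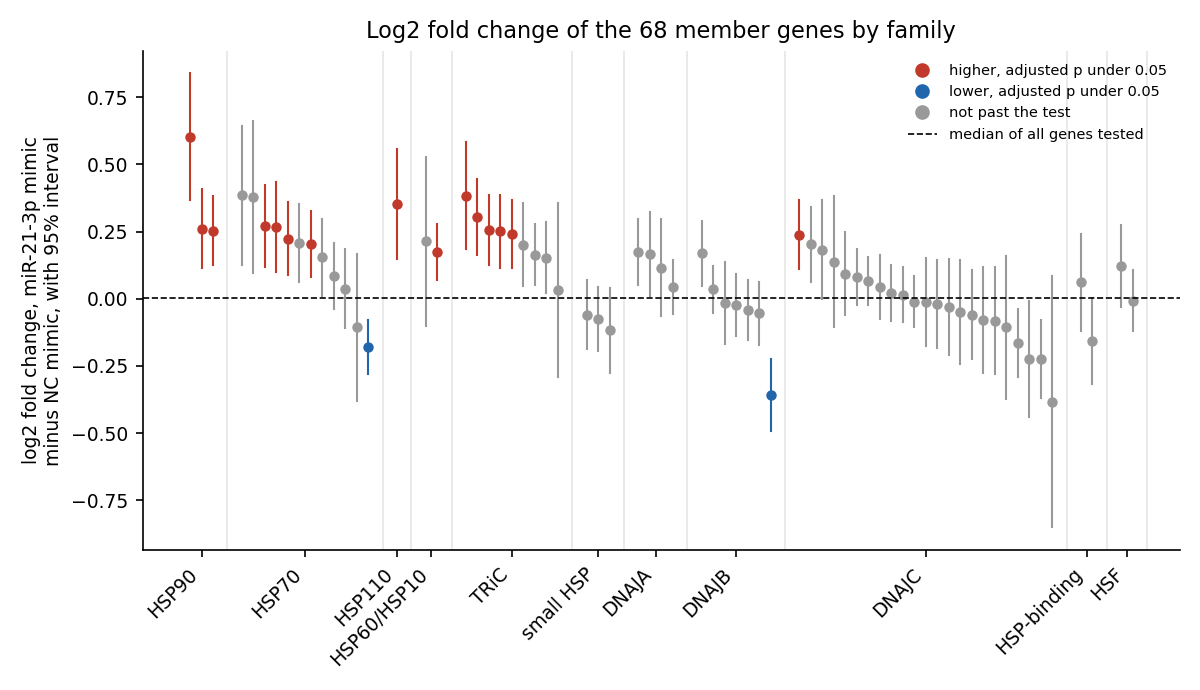
Log2 fold change (vertical axis, miR-21-3p mimic minus NC mimic) of each of the 68 member genes, grouped by family, with 95% intervals from limma, red for higher, blue for lower and grey for genes not past the test. The 3 HSP90 genes and 5 of 9 TRiC subunits are red, while 32 of the 34 J-domain genes are grey. Over all tested genes 6.15% rose and 4.67% fell.

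Levels were compared per kilobase of exon in the NC libraries, using GENCODE 29 gene models. HSP90AB1, the constitutive cytosolic HSP90, had the highest level at 7629 per kb, followed by HSPB1, a small heat shock protein that holds unfolded clients, at 5059. HSP90AA1, the heat-inducible cytosolic HSP90, had a level of 3817 per kb. The ER chaperones HSPA5 and HSP90B1 were at 2802 and 2783 per kb, levels that lie within the spread of their NC libraries. DNAJB1 and HSPA8, the cytosolic J-domain and HSP70 pair that folds much of the cell's new protein, stood at 1895 and 1852 per kb. HSPD1 was at 1330 per kb and its lid partner HSPE1 at 42.0, where 9.71% of the HSPE1 exon bases also belong to the read-through gene HSPE1-MOB4. The HSPE1 level divides by all 1977 exon bases of its gene model. Whether reads of HSPE1 went uncounted was not tested. The lowest levels were those of HSPA4L, at 9.60 per kb, and CCT6B, a TRiC subunit known from testis, at 15.3. Of the 5 genes with the highest level, HSPB1 did not pass the test and the others rose.

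HSP90AA1 had the largest rise of the 68. Its values were 17000, 23800 and 19300 in the NC libraries and 31000, 26300 and 33600 in the miR-21-3p libraries. The groups did not overlap, although NC replicate 2 and miR-21-3p replicate 2 were the closest pair. The fold was 1.52 (log2 0.60, SE 0.108, n = 3 per group, 95% interval 0.37 to 0.84, limma adjusted p = 0.0086). Without NC replicate 2 the log2 value was 0.73 (adjusted p = 5.98e-05), and without NC replicate 3 it was 0.58 and the call was lost (adjusted p = 0.0528). Over 17 alternatives its log2 fold change lay between 0.49 and 0.73, and it passed in 16.

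HSP90AB1 went from 21100, 24500 and 22600 to 27500, 25700 and 28000. Each miR-21-3p library exceeded each NC library, by a smaller log2 difference of 0.25 (SE 0.0595, limma adjusted p = 0.0214). HSP90AA1 and HSP90AB1 share no 50-base stretch in their transcripts, so their reads are distinct at that length. HSP90B1, the HSP90 of the ER (GRP94), measured 11700, 14600 and 12900 against 15200, 15400 and 16200. Its groups did not overlap either, with a log2 fold change of 0.26 (SE 0.0681, adjusted p = 0.0316). The sum of the 3 HSP90 genes was 49800, 62900 and 54800 in NC libraries and 73700, 67400 and 77800 with the mimic, a ratio of means of 1.31. With NC replicate 2 left out all 3 remained called, at adjusted p up to 0.0017, where 11% of all genes were higher. HSP90AB1 and HSP90B1 lost their calls without NC replicate 1 or 3 or miR-21-3p replicate 1 or 3, at adjusted p up to 0.117, while their log2 fold changes stayed at or above 0.18.

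Because all 3 HSP90 genes and 4 of 12 HSP70 genes rose, the members' promoters were searched for the letters that heat shock factors are known to bind. Promoter windows of 300 bases around RefSeq start sites (GRCh38.p14) were found for 62 of the 68 genes, with 85 starts in all, and none was found for CCT6A, DNAJC1, DNAJC24, HSF1, HSPA14 and HSPB11. The pair of units GAANNTTC or TTCNNGAA, each of which reads the same on both strands, occurred in 21 of the 62 (33.9%) and in 16.2% of 27305 genes. Of the members that rose it was present in 6 of 14 (42.9%): HSP90AA1, HSP90AB1, HSPA1A, HSPA9, HSPD1 and TCP1. It was in 15 of the 48 others (31.2%), among them HSPA1B, HSPA8, HSPB1 and DNAJB1, which did not pass the test. A run of 3 units, GAANNTTCNNGAA on either strand, which contains the pair, occurred in 6 of the 62 (9.68%) against 0.608% of all genes. These were HSP90AA1, HSP90AB1 and HSPD1, which rose, and HSPA8, DNAJA1 and DNAJB6, which did not pass the test. A match describes letters only and does not show that a factor binds there. Shown for the gene with the largest rise, for the classical heat-inducible HSP70 gene and for the member that fell most among those past the test are HSP90AA1 (chr14:102086995-102087294, minus strand, the start with most matches of its 2), HSPA1A (chr6:31815293-31815592, plus strand) and DNAJB2 (chr2:219279116-219279415, plus strand). Capitals mark the pairs of units, which overlap in HSP90AA1 and are absent from the DNAJB2 window.
HSP90AA1: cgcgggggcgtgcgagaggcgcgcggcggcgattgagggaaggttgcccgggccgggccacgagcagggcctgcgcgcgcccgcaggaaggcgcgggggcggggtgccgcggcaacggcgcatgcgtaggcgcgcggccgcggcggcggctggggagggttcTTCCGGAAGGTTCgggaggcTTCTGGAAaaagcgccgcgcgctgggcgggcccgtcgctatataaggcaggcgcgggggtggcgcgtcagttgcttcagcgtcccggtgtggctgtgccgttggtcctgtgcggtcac
HSPA1A: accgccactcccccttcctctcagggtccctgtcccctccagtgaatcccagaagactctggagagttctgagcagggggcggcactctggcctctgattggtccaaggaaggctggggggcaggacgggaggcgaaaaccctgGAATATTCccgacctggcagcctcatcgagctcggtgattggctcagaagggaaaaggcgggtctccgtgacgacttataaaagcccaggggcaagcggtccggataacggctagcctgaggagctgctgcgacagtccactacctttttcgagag
DNAJB2: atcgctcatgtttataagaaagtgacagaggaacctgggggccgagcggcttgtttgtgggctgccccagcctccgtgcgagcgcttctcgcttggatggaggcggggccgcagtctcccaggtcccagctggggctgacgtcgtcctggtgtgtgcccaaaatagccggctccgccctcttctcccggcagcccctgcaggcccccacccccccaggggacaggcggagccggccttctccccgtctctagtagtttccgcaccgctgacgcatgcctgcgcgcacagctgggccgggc

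The HSP90AA1 window holds 3 pairs, which make 1 run of 3 units and a separate pair, and the HSPA1A window holds 1 pair. HSPA1A and HSPA1B encode nearly the same stress-inducible HSP70. HSPA1A read 1270, 1340 and 1280 in the NC libraries and 1520, 1390 and 1640 with the mimic. The groups did not overlap and the log2 fold change was 0.22 (SE 0.0625, limma adjusted p = 0.0397). HSPA1B read 1420, 1560 and 1550 against 1660, 1550 and 1840, overlapped, and did not pass (0.15, adjusted p = 0.145). Of the 50-base stretches of HSPA1A transcripts 69.7% occur in HSPA1B, so reads can be shared and the split between these genes is uncertain. In addition, 36.5% of the HSPA1B exon bases also belong to the gene model AL671762.1. HSPA1L, a relative known from testis, did not pass either (-0.11, adjusted p = 0.62).

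HSPA8, the constitutive HSP70 of the cytosol, had the largest log2 difference of its family and did not pass the test. It measured 7660, 10800 and 8480 against 11600, 9900 and 13600. NC replicate 2 lay above miR-21-3p replicate 2, so the groups overlapped, and the log2 fold change was 0.38 (SE 0.119, limma adjusted p = 0.0564). Left out, NC replicate 2 gave 0.53 with adjusted p = 0.0011, so that HSPA8 passed, as it did without miR-21-3p replicate 2 and with replicates paired by number (adjusted p = 0.0378), and over 17 alternatives the adjusted p lay between 0.0011 and 0.231.

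HSPH1 and HSPA4 release ADP from HSP70 so that it can let go of its client. HSPA4 and HSPA4L are HSP110-type proteins like HSPH1 but are counted with HSP70 here, by their HSPA symbols. HSPH1 read 3510, 4540 and 3830 against 5120, 4400 and 5630 (log2 0.35, SE 0.0941, limma adjusted p = 0.0346), with miR-21-3p replicate 2 under NC replicate 2. HSPA4 read 2570, 2990 and 2850 against 3300, 3130 and 3250 (0.21, SE 0.0566, adjusted p = 0.0382), with no overlap. HSPA4L, their low-level relative, read 115, 125 and 94.7 against 151, 132 and 151 and did not pass (0.38, adjusted p = 0.0814). HSPA12A, a distant HSP70 relative, fell: its 2090, 2000 and 2060 were all above 1830, 1760 and 1840 (-0.18, SE 0.0466, adjusted p = 0.0311). The HSP70 family sums overlapped between groups, with a ratio of 1.19 between group means. The HSP70 genes that rose all lost their calls without NC replicate 1 or 3 or miR-21-3p replicate 1 or 3, at adjusted p from 0.11 to 0.163, and HSPH1 did in the same fits at up to 0.132 and with DESeq2 at 0.111. HSPA1A, HSPA4 and HSPA12A also lost theirs with the replicates paired by number (adjusted p = 0.062, 0.0609 and 0.0762). All 4 HSP70 genes and HSPH1 remained called without NC replicate 2, at adjusted p up to 0.0181, where 11% of all genes were higher and 9.03% lower. HSPA12A remained called there (adjusted p = 0.0174) and in none of the other 5 left-out fits, where the highest adjusted p was 0.122.

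In the ER, HSPA5 (BiP) is the HSP70 that binds proteins as they enter, and it holds the sensors of the unfolded protein response inactive. HSPA5 measured 9650, 12200 and 11000 against 13000, 12200 and 14200. NC replicate 2 and miR-21-3p replicate 2 had the same value, and the log2 fold change was 0.27 (SE 0.0773, limma adjusted p = 0.0457). Of the 8 ER chaperones listed, HSPA5 and HSP90B1 rose and the other 6 did not pass, with a median of 0.10. Over all tested genes 6.15% rose and 4.67% fell. At an unadjusted p under 0.05, 4 of the 8 were higher and 0 lower, beside 15.3% and 13.2%, and edgeR called 1 higher and 0 lower. The call of HSPA5 was lost with edgeR, without a filter, and with NC replicate 1 or 3 or miR-21-3p replicate 1 or 3 left out, at adjusted p up to 0.163. Leaving out NC replicate 2 gave 0.35 for HSPA5 and 0.34 for HSP90B1, with adjusted p up to 0.0022. The ER stress element, CCAAT and CCACG set 9 bases apart on either strand, is the sequence through which ATF6 is known to act. It occurred in the windows of HSPA5 and HSP90B1 and of no other matched member, 2 of 62 (3.23%), against 0.0916% of all genes. A match describes letters only, and whether the element has a part in the rise of HSPA5 and HSP90B1 was not tested. Their windows, HSPA5 (chr9:125241294-125241593, minus strand) and HSP90B1 (chr12:103930160-103930459, plus strand), are shown because they hold it once and at 2 places, with CCAAT and CCACG, or their complement, in capitals.
HSPA5: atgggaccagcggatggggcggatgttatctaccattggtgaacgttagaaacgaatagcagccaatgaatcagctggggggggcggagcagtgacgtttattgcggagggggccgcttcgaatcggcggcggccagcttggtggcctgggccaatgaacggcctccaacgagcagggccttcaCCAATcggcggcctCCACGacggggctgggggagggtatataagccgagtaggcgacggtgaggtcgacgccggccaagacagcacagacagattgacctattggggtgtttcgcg
HSP90B1: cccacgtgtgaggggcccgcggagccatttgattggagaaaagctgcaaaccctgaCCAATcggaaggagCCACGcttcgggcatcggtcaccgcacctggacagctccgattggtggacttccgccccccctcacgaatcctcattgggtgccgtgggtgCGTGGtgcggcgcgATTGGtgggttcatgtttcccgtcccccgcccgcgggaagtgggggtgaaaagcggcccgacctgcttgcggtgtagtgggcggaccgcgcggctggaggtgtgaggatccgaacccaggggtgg

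Genes that work with the ER chaperones were taken from a list of 21. Of these 4 rose and 0 fell by limma, beside 6.15% and 4.67% of all tested genes, with a median of 0.05. At an unadjusted p under 0.05, 8 were higher and 2 lower, beside 15.3% and 13.2%, and edgeR called 4 higher and 1 lower. HYOU1, the ER relative of HSP110, had values of 2490, 2870 and 2540 against 3190, 2950 and 3530 (log2 0.29, limma adjusted p = 0.0224). PDIA6 and PDIA3, which form disulfide bonds, had log2 fold changes of 0.27 and 0.23 (adjusted p = 0.0222 and 0.0301). SDF2L1, a partner of HSPA5 named after its values were seen, had 0.43 (adjusted p = 0.0397). The transcription factors of the unfolded protein response did not pass, and are also named with values known. XBP1 had 0.04, ATF4 0.08, ATF6 -0.02 and DDIT3 -0.04. These are RNA levels, and the activity of these factors was not measured. HERPUD1, an ER degradation gene that such factors control, had -0.16 (limma adjusted p = 0.0547) and was the gene lower by edgeR. HYOU1, PDIA6 and PDIA3 each lost their calls without NC replicate 1 or 3 or miR-21-3p replicate 1 or 3, at adjusted p up to 0.113, and remained called without NC replicate 2.

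Mitochondria fold imported proteins with HSPA9 (mortalin), which also pulls them in, and with the HSPD1 ring. HSPA9 measured 4020, 4780 and 4190 against 5350, 4750 and 5580. NC replicate 2 was just above miR-21-3p replicate 2, and the log2 fold change was 0.27 (SE 0.0704, limma adjusted p = 0.0308). HSPD1 measured 5470, 5790 and 5680 against 6160, 6220 and 6730, with no overlap and a smaller difference of 0.17 (SE 0.0477, adjusted p = 0.0381). HSPE1, the lid of the HSPD1 ring, was at 80.2, 95.8 and 73.2 against 107, 90.1 and 91.5 and did not pass (0.21, adjusted p = 0.357). Of the 8 mitochondrial chaperones listed HSPA9 and HSPD1 rose and 0 fell by limma, beside 6.15% and 4.67% of all tested genes, with a median of 0.13. At an unadjusted p under 0.05, 3 were higher and 1 lower, beside 15.3% and 13.2%. By edgeR 2 were higher, and DNAJC15 was lower. HSPA9 and HSPD1 lost their calls without NC replicate 1 or 3 or miR-21-3p replicate 1 or 3, at adjusted p from 0.0905 to 0.145. Both remained called without NC replicate 2, at up to 0.0184. HSPD1 also lost its call with replicates paired by number (adjusted p = 0.0755).

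Among 11 mitochondrial partners and proteases, 3 rose and 0 fell by limma, beside 6.15% and 4.67% of all tested genes, with a median of 0.11. An unadjusted p under 0.05 was reached by 5 that were higher and 0 that were lower, beside 15.3% and 13.2%, and edgeR called 3 higher and 0 lower. LONP1, the protease that clears damaged matrix proteins, had 968, 979 and 894 against 1230, 1180 and 1330. All mimic libraries lay above all NC libraries and the log2 fold change was 0.40 (limma adjusted p = 0.005), with the call kept in each left-out fit. TRAP1, the mitochondrial HSP90, had 1870, 2320 and 1890 against 2590, 2380 and 2710 (0.34, adjusted p = 0.0192). The TRAP1 call was lost without NC replicate 1 or 3 or miR-21-3p replicate 1 or 3, at adjusted p up to 0.0962. GRPEL1, the exchange factor of HSPA9, also rose (0.21, adjusted p = 0.0419) and is named with its values known.

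TRiC is a double ring of 8 kinds of subunit that folds actin and tubulin. The somatic subunits are TCP1, CCT2, CCT3, CCT4, CCT5, CCT6A, CCT7 and CCT8. All 8 had a positive log2 fold change, as had 51.1% of all tested genes. CCT7 measured 3300, 3790 and 3320 against 4230, 4000 and 4630 (0.31, SE 0.0648, limma adjusted p = 0.0151). CCT5 had the largest difference, 3350, 4290 and 3400 against 4770, 4290 and 5300 (0.38, SE 0.0915, adjusted p = 0.0222). In CCT5 the replicates numbered 2 of both groups had the same value, whereas in CCT7 each mimic library exceeded each NC library. TCP1, at 3520, 4090 and 3650 against 4500, 4170 and 4720, rose by 0.25 (adjusted p = 0.0258). CCT6A rose by 0.26 (adjusted p = 0.0207), from 4620, 5390 and 4870 to 5950, 5590 and 6220. CCT3 rose by 0.24 (adjusted p = 0.0237), from 4290, 4850 and 4350 to 5310, 4990 and 5650. TCP1, CCT3 and CCT6A each had groups that did not overlap. Over all tested genes each miR-21-3p library exceeded each NC library in 16.5%.

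The other somatic TRiC subunits did not pass the test. CCT2 read 2610, 2950 and 2520 against 3180, 2790 and 3320 (0.20, limma adjusted p = 0.0879), with overlap. CCT4 read 4160, 4640 and 4320 against 4760, 4770 and 5160 (0.16, adjusted p = 0.0641), and CCT8 read 2170, 2580 and 2480 against 2660, 2640 and 2720 (0.15, adjusted p = 0.118), both without overlap. The subunits that rose and those that did not are parts of the same ring, and whether their changes differ was not tested. CCT6B, the testis form, had 0.03 (adjusted p = 0.908). The summed TRiC value was 28082.5, 32650.1 and 28976.4 in NC libraries and 35434.4, 33310.7 and 37779.2 with the mimic, a ratio of means of 1.19. With NC replicate 2 left out all 8 somatic subunits passed, at adjusted p up to 0.0242, beside 11% of all genes higher and 9.03% lower. With NC replicate 1 or 3 or miR-21-3p replicate 1 or 3 left out, the 5 subunits that rose lost their calls, at adjusted p from 0.0575 to 0.113.

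Prefoldin subunits, which hand actin and tubulin to TRiC, and other TRiC partners made a list of 10. Of these, 2 rose and 0 fell by limma, beside 6.15% and 4.67% of all tested genes, and the median was 0.07. There were 4 higher and 0 lower at an unadjusted p under 0.05, beside 15.3% and 13.2%, and 2 higher and 0 lower by edgeR. PFDN2 had 383, 435 and 439 against 529, 495 and 567, with no overlap (log2 0.34, limma adjusted p = 0.022). PFDN6, named with its values known, had 0.30 (adjusted p = 0.0431). PFDN2 lost its call without NC replicate 1 or 3 or miR-21-3p replicate 1 or 3, at adjusted p up to 0.0966.

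J-domain proteins choose the clients that HSP70 receives. The J-domain sum was 48176, 49458 and 48865 in NC libraries and 49665, 49208 and 50774 with the mimic, a ratio of 1.02. DNAJA1, a main partner of HSPA8, measured 1730, 2000 and 1860 against 2080, 1900 and 2300 and did not pass (log2 0.17, limma adjusted p = 0.149). DNAJB1, the heat-inducible partner, measured 7030, 6940 and 6910 against 6980, 7230 and 7190 (0.04, adjusted p = 0.606). The DNAJB1 groups overlapped and differed by less than 1 SE. Of 13 listed genes known as HSF1 targets in heat shock, 12 were tested. Some of them, such as HSP90AB1 and HSPA8, are also made constitutively. HSP90AA1, HSP90AB1, HSPA1A, HSPD1 and HSPH1 rose and 0 fell by limma, beside 6.15% and 4.67% of all tested genes. The median of the 12 was 0.22. At an unadjusted p under 0.05, 9 were higher and 0 lower, beside 15.3% and 13.2%, and edgeR called 5 higher and 0 lower.

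DNAJC8, a J-domain protein linked to the splicing machinery, was the J-domain gene that rose. It measured 1110, 1250 and 1230 against 1380, 1380 and 1470, with no overlap (log2 0.24, SE 0.0591, limma adjusted p = 0.0261). DNAJB2, which steers HSP70 clients to the proteasome, fell. Its values of 1790, 1580 and 1670 were all above 1350, 1360 and 1220 (-0.36, SE 0.0619, adjusted p = 0.0075). DNAJB2 was lower in each of 17 alternatives, between -0.40 and -0.31, while DNAJC8 lost its call without NC replicate 1 or 3 or miR-21-3p replicate 1 or 3, at adjusted p up to 0.106. DNAJC15, a J-domain protein of the mitochondrial inner membrane, measured 824, 840 and 879 against 674, 725 and 782. It lay just outside the limit with limma (-0.22, adjusted p = 0.0508) and was called lower with edgeR and without NC replicate 2. The most negative J-domain value, -0.38, was that of DNAJC28, a low-level gene named after its values were seen, which did not pass (adjusted p = 0.264).

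Of 8 small heat shock protein genes listed, 3 were in the table. Neither these nor the heat shock factors passed the test. HSPB1 measured 8440, 7890 and 8470 against 8090, 8230 and 7230 (log2 -0.08, limma adjusted p = 0.388), with overlap. HSPB8, which works with BAG3 in selective autophagy, had -0.06. HSPB11, a protein of cilium transport counted here by its symbol, had -0.12. HSF1, the factor that drives heat-inducible genes, measured 1730, 1560 and 1630 against 1660, 1620 and 1610 (-0.01, adjusted p = 0.938). The sign of the HSF1 value turned in single left-out fits, and it never passed. HSF2, a related factor active in development, measured 463, 463 and 508 against 537, 503 and 520 (0.12, adjusted p = 0.274). RNA levels of HSF1 do not show its activity, which is known to be set by protein state. HSPBP1, which releases ADP from HSP70, and HSPBAP1, named after its binding to HSPB1, had 0.06 and -0.16 and did not pass.

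Cytosolic co-chaperones were listed apart from the members, and of 21 tested 6 rose and 0 fell by limma, beside 6.15% and 4.67% of all tested genes, with a median of 0.11. The counts at an unadjusted p under 0.05 were 8 higher and 1 lower, beside 15.3% and 13.2%, and by edgeR 6 higher and 0 lower. STIP1 (HOP), which joins HSP70 to HSP90, had 2850, 3470 and 3020 against 3930, 3720 and 4470 (log2 0.38, limma adjusted p = 0.0129). AHSA1, which speeds the ATPase of HSP90, had 0.36 (adjusted p = 0.0173). PTGES3 (p23), which stabilises closed HSP90, had 4550, 5280 and 4630 against 5980, 5830 and 5900 (0.30, adjusted p = 0.0098). TOMM34, a scaffold for HSP70 and HSP90, had 1830, 2060 and 1890 against 2370, 2310 and 2580 (0.33, adjusted p = 0.0085). These partners of HSP90 had groups that did not overlap, and they were named because they passed a test on these same values. In 8 of the 21 each miR-21-3p library exceeded each NC library and in 1 each was lower. Over all tested genes this held for 16.5% and 14.8%. FKBP4, an HSP90 partner in steroid receptor complexes, had 0.24 (adjusted p = 0.0177), and BAG3, an HSP70 exchange factor, had 0.19 (adjusted p = 0.0197, or 0.0572 with replicates paired by number). NC replicate 2 was the highest NC library for 10 of the 21 and for 5 of the 6, against 36.9% of all tested genes. The 6 were picked by a test on these same values. Without NC replicate 2, 8 of the 21 were called higher, beside 11% of all genes. Of the 12 called partners with the lowest adjusted p from all lists, 12 remained called without NC replicate 2 or without miR-21-3p replicate 2. Of the same 12, 4 remained without NC replicate 1, 1 (LONP1) without NC replicate 3, 2 without miR-21-3p replicate 1 and 3 without miR-21-3p replicate 3. The left-out fits of SDF2L1, PFDN6 and GRPEL1, which also rose, are not given here.

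The 17 pseudogenes are inserted copies of chaperone mRNAs. Of these, 16 passed the filter, and HSP90B2P stood at 0 in each library. By limma 3 rose and 0 fell, beside 6.15% and 4.67% of all tested genes. At an unadjusted p under 0.05, 10 were higher and 0 lower, where the background was 15.3% and 13.2%. With edgeR 3 were higher and 0 lower, beside 5.94% and 5.16% of all genes. HSPA8P5 measured 54.2, 68 and 120 against 194, 154 and 191, with no overlap (log2 1.22, SE 0.228, limma adjusted p = 0.0097). That is larger than the 0.38 of its parent HSPA8, though the difference was not tested. The mean NC value of HSPA8P5, not scaled for length, was 0.899% of that of HSPA8, and 2.43% of its 50-base stretches occur in HSPA8 transcripts. HSPA8P1 measured 321, 420 and 320 against 481, 406 and 581, overlapped, and had 0.46 (adjusted p = 0.041), with 8.58% of its stretches in HSPA8. HSP90AA4P measured 83.4, 99.9 and 97.6 against 156, 122 and 155, with no overlap and 0.61 (adjusted p = 0.0177), close to the 0.60 of HSP90AA1, and 2.13% of its stretches occur there. Larger mean NC values against the parent were those of HSP90AB3P, at 21.1% of HSP90AB1, and HSPD1P1, at 18.8% of HSPD1. Of their stretches 19.3% and 24.1% occur in the parent, and neither pseudogene passed the test. How many reads of these pseudogenes came from the parents was not tested. Adding pseudogene values to the parents left all 15 genes called and added HSPA8 (0.40, adjusted p = 0.0487). HSPA8P5 lost its call without miR-21-3p replicate 1 (adjusted p = 0.0552), and HSPA8P1 and HSP90AA4P lost theirs without NC replicate 1 or 3 or miR-21-3p replicate 1 or 3, at adjusted p up to 0.159 and 0.0879.

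**Figure D5:**
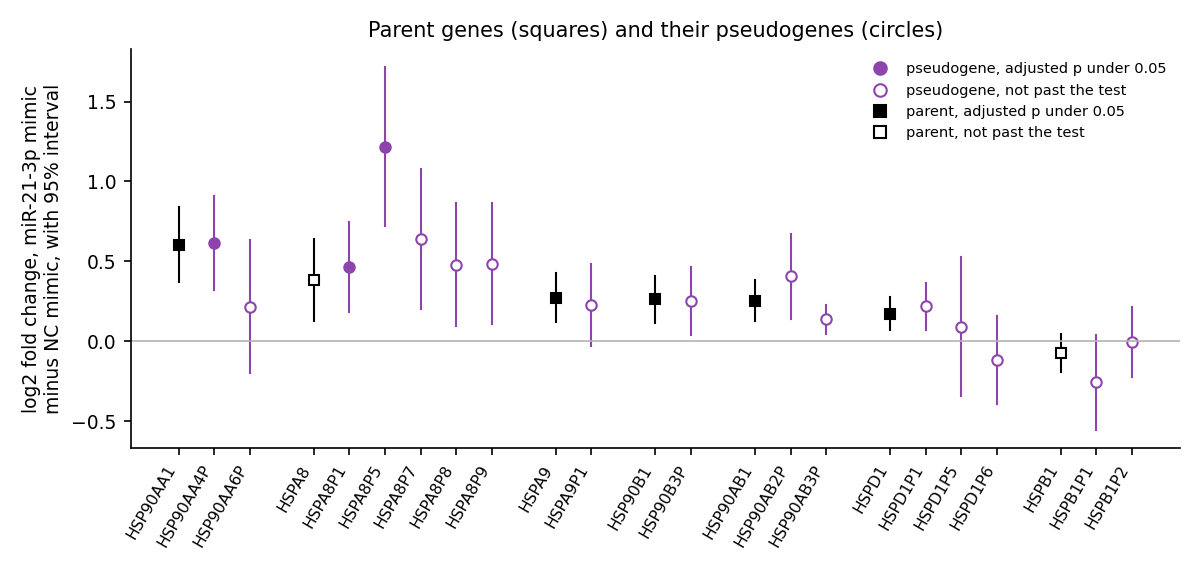
Log2 fold change (vertical axis, miR-21-3p mimic minus NC mimic) with 95% intervals from limma for parent genes (squares) and their pseudogenes (circles), filled where the adjusted p was under 0.05. HSPA8P5 lies highest at 1.22, and 13 of the 16 plotted pseudogenes have open circles.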

How the data were processed

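The unit of the deposited values, per the labels and as checked here, is signal: read counts that the authors divided by DESeq2 size factors. The labels name bcl2fastq 2.18.12, cutadapt 1.15, TopHat2 2.1.1, featureCounts in Subread 1.5.2 and DESeq2, whose version was not given. The genome build and annotation are not given in the sources used here. A fit to counts by edgeR with TMM had been planned. Because the table holds scaled values, limma (trend) was used instead, a departure made once the form of the values was known. It was fitted to log2(value + 1) for genes with a mean of at least 10 over the 6 libraries. Benjamini-Hochberg adjustment covered all genes tested, and no further scaling was applied. The planned edgeR with TMM was fitted to recovered reads (each value divided by its library's smallest step, rounded). Its use on recovered reads was a choice made after seeing the data. The genes named are a fixed set of principal members, every member and pseudogene called with its parent, and the 12 called partners with the lowest adjusted p, and others are said to be named with values known. Members and lists were chosen with earlier results of these data known. Tools were R 4.3.3, limma 3.58.1, edgeR 4.0.16, DESeq2 1.42.0, Python 3.11.15 and matplotlib 3.10.9. The procedure was tested on simulated data.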

Additional observations from a re-analysis of the deposited data

How the results depend on the processing

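With each library left out in turn, members called higher ranged from 0 to 24 and lower from 1 to 3, and over all genes 98 to 1629 were higher and 81 to 1334 lower. Fewer libraries enter each such fit. HSF1 ranged from -0.0431 without NC mimic replicate 2 to 0.0315 without NC mimic replicate 1, and was also positive without miR-21-3p mimic replicate 3 (0.0012), at adjusted p from 0.633 to 0.994 over all alternatives. The cause was not tested.

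A replicate block, pairing libraries by number, gave 13 members higher (HSPA1A, HSPA4 and HSPD1 lost, HSPA8 gained) and 1 lower (HSPA12A lost), with 685 and 517 over all genes. The cause was not tested. Same-numbered libraries correlated at -0.0059, -0.201 and -0.168 across genes, and none correlated best with its own number.

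The other alternatives left 14 to 16 members higher and 2 or 3 lower. HSPA5 was lost with edgeR and with no filter, HSPH1 with DESeq2, and DNAJC15 was called lower with edgeR, limma-voom and TMM scaling. Pseudocounts of 0.1 and 5, TMM scaling before limma, and edgeR with libraries left out were chosen after seeing the data. So was the use of edgeR with TMM on recovered reads, which had been planned for counts. Low counts limit the precision for HSPE1, HSPA4L and most pseudogenes.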
